A study of Mus musculus with 2 samples.

Results

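The genes described here encode the basement membrane and the surrounding extracellular matrix of the vessels in the mouse stria vascularis (SV), the vascularized epithelium in the lateral wall of the cochlea. The 36 members were a fixed list of collagen IV chains, laminin chains, nidogens, heparan sulfate proteoglycans, secreted matrix glycoproteins, interstitial collagens and small leucine-rich proteoglycans, and all 36 were among the 27040 genes listed in both count matrices. Their levels were compared between endothelial, mural and intermediate cell barcodes of the SV, which were defined by other genes.

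A vascular basement membrane is a thin sheet built from a laminin network and a collagen IV network, tied together by nidogen and by proteoglycans such as perlecan and agrin. A laminin molecule is a trimer of an α, a β and a γ chain, and collagen IV trimers are assembled from α chains whose genes lie in head-to-head pairs. In capillaries, endothelial cells and pericytes sit on either side of a shared basement membrane and both contribute to it, and in the SV the intermediate cells, which are pigment cells of melanocyte origin, lie close against these vessels.

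The study profiled SV cells by droplet-based single-cell RNA sequencing (10x Genomics, 3′ end counting with unique molecular identifiers, UMIs) in 2 libraries. The first came from Tie2-GFP mice, in which the promoter of Tek (Tie2) drives GFP in endothelial cells, and the other from NG2-DsRed mice, in which the promoter of Cspg4 (NG2) drives DsRed in pericytes and in other NG2-expressing cells. Mice of each line were 1 to 3 months old, were not treated, and their tissue was pooled (10 mice, 20 cochleae per library). Fluorescence sorting was applied only when needed and the labels do not say for which library, so all classes below are defined by RNA. With 1 library per line, no test between lines or classes was possible, and every interval given covers counting error only.

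The Tie2-GFP library held 633 barcodes with 5432289 UMIs and the NG2-DsRed library 201 barcodes with 1232599 UMIs; 556 and 197 lay within the limits used, and no cell barcode sequence was shared. A barcode was endothelial with UMIs for at least 4 of 6 endothelial genes (Pecam1, Cdh5, Cldn5, Flt1, Egfl7, Ramp2), mural with at least 3 of Pdgfrb, Rgs5, Notch3 and Cspg4 and at most 1 endothelial gene, and intermediate with Dct, Tyr and Kcnj10 all detected. Mural barcodes with at least 3 summed UMIs of the smooth muscle genes Acta2, Tagln and Myh11 were called contractile and the others low-contractile. This gave 375 endothelial and 84 intermediate barcodes in the Tie2-GFP library, and 57 endothelial, 51 low-contractile mural, 41 contractile mural and 25 intermediate barcodes in the NG2-DsRed library; the Tie2-GFP library held only 4 mural barcodes. Median depth was 7421 UMIs per endothelial barcode and 15339.5 per intermediate barcode in the Tie2-GFP library, and 8975, 2480, 3921 and 10383 UMIs in the 4 NG2-DsRed classes in the order given.

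Marker genes that the rules did not use followed the class names in part. The 5 further endothelial markers summed to 2417 CPM (UMIs per 1000000 UMIs of the class) in Tie2-GFP endothelial barcodes, and the 5 further mural markers to 4626 CPM in low-contractile mural barcodes, which also held the endothelial check genes Esam and Emcn at 429 and 196 CPM but no Tek, Kdr or Cd34. In Tie2-GFP intermediate barcodes Met reached 1150 CPM, Mlana 1053 CPM and Cd44 215 CPM, but Kit had no UMI and Pmel had 0.833 CPM. The 5 further smooth muscle markers summed to 5708 CPM in contractile and 2091 CPM in low-contractile mural barcodes. Of these 5, Cnn1 had no UMI in any class, and Sorbs2 stood at 487 CPM in Tie2-GFP endothelial against 179 CPM in contractile mural barcodes. Of the 6 fibrocyte and fibroblast markers, whose cells also make matrix, at most 2 had a UMI in any of these 6 classes, and they summed to 0 to 22.6 CPM with Lum and Dpt at 0. Macrophage markers were at 0 in both mural classes and summed to 116 CPM in NG2-DsRed endothelial and 205 CPM in NG2-DsRed intermediate barcodes, and erythroid markers reached 2534 CPM in Tie2-GFP endothelial barcodes. Of the 57 endothelial barcodes of the NG2-DsRed library, 35 also carried at least 2 mural genes, as did 26 of the 375 in the Tie2-GFP library. Some endothelial results are therefore given also for the barcodes with at most 1 mural gene (called mural-low here). There were 22 of these in the NG2-DsRed and 349 in the Tie2-GFP library. Endothelial values not named as mural-low include the barcodes with at least 2 mural genes. The mural-low endothelial barcodes of the NG2-DsRed library still held 1797 CPM of Rgs5, one of the 4 mural rule genes, and none of the other 3.

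**Figure D1:**
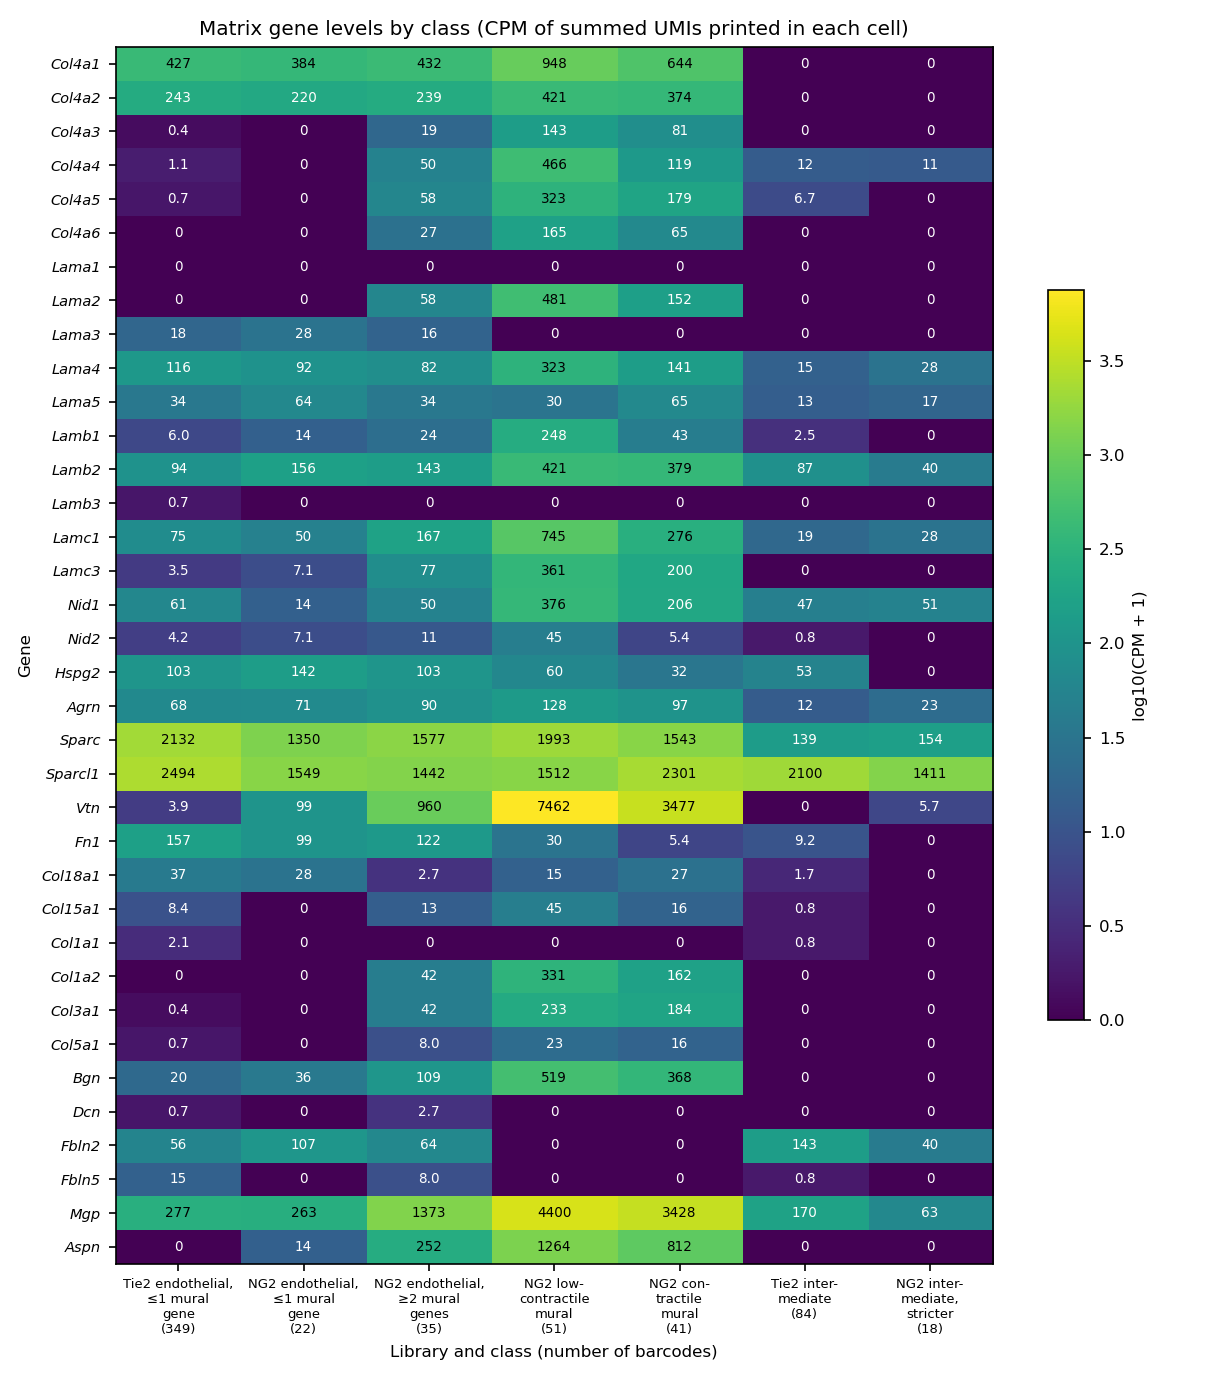
Each cell gives the CPM of summed UMIs of 1 matrix gene (rows) in 1 class (columns, number of barcodes in brackets), coloured by log10(CPM + 1). Vtn, Mgp and Aspn are highest in the mural columns, and Sparcl1 is high in every column. Sparc, Col4a1 and Lamc1 are lower in the intermediate than in the endothelial columns.

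Sequence upstream of 4 members is shown first because they carry the main contrast of the report: Vtn is the member with the highest mural level, and Col4a4, Col4a5 and Col4a6 are chains found in mural but hardly in mural-low endothelial barcodes. RefSeq start sites of GRCm38.p6 gave promoter windows for 24 of the 36 members. The stretches printed run 5′ to 3′ on the gene's strand and end before the first base that the GENCODE annotation places in an exon of either strand. The capitals mark matches, on either strand, to the letters TATAAA of the TATA box, to GGGCGG of the GC box, and to the motif of that name for the CCAAT box. They further mark GGAATG, the core bound by TEAD factors, and TGGGAA, the core bound by RBPJ, the nuclear factor of Notch signalling.
Vtn, chr11:78498870-78499090, plus strand: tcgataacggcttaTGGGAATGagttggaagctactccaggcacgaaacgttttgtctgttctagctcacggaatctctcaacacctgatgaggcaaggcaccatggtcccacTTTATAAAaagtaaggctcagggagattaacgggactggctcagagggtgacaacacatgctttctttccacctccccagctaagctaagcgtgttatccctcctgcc
Col4a4, chr1:82586850-82586920, minus strand: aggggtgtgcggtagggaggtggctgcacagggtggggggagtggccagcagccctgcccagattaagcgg
Col4a5, chrX:141475169-141475384, plus strand: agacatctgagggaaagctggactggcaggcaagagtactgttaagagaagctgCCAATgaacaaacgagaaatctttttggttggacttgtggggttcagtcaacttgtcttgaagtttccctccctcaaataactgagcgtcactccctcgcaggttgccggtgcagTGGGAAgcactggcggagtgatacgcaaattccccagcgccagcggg
Col4a6, chrX:141474077-141474326, minus strand: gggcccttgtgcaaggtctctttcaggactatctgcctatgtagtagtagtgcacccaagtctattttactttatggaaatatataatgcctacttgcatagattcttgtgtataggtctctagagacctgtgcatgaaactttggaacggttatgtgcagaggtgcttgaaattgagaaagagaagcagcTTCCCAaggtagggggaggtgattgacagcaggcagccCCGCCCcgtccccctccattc
The 71 bases before Col4a4 are the whole gap between its start and the first exon of Col4a3, which is read the other way, and they hold no match. The start sites of Col4a5 and Col4a6 lie 1343 bases apart, again head to head, and both stretches hold an RBPJ core match, along with a CCAAT box in the Col4a5 stretch and a GC box in the Col4a6 stretch. In the Vtn stretch the first capitals are an RBPJ core and a TEAD core that overlap, and the second are the TATA letters read on both strands. Over 32851 promoter windows of 250 bases, 21.6% held the RBPJ letters, 12.6% the TEAD letters, 12.4% the TATA letters, 32.7% the GC box and 33.8% the CCAAT box, so such matches are common and describe these letters only. The remaining pair, Col4a1 and Col4a2, has start sites 21 bases apart on chromosome 8 and is not printed. In the same build the gene bodies lie at chr11:78499091-78502324 for Vtn, chr1:82448423-82586849 for Col4a4, chrX:141475385-141689234 for Col4a5 and chrX:141165403-141474076 for Col4a6.

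A larger share of the UMIs came from the matrix genes in mural than in endothelial or intermediate barcodes. The 36 genes together took 2.35% of UMIs in low-contractile mural barcodes (95% Clopper-Pearson interval 2.27 to 2.43) and 1.54% in contractile mural barcodes (1.48 to 1.60). In endothelial barcodes the share was 0.665% in the Tie2-GFP library (0.656 to 0.674) and 0.691% in the NG2-DsRed library (0.669 to 0.714), falling to 0.479% in its 22 mural-low barcodes (0.444 to 0.517). Intermediate barcodes had 0.284% in the Tie2-GFP library (0.274 to 0.293) and 0.236% in the NG2-DsRed library (0.218 to 0.255). Per barcode, the median was 2.38% in low-contractile mural barcodes with a range of 0.526% to 4.82%, against a median of 0.625% and a maximum of 2.62% in Tie2-GFP endothelial barcodes, so the classes overlapped in single barcodes. Without Sparc and Sparcl1 the share was 0.215% in Tie2-GFP endothelial, 0.392% in NG2-DsRed endothelial, 2.00% in low-contractile and 1.16% in contractile mural barcodes. It was 0.190% in mural-low NG2-DsRed endothelial, 0.0596% in Tie2-GFP intermediate and 0.0626% in NG2-DsRed intermediate barcodes. These 2 genes thus made up most of the share in Tie2-GFP endothelial, mural-low NG2-DsRed endothelial and both intermediate groups. They did not in the NG2-DsRed endothelial class as a whole or in either mural class. In the mural classes Vtn and Mgp took a large part instead. They held 992 and 585 of the 3126 member UMIs in low-contractile barcodes, and 642 and 633 of 2844 in contractile ones. No share was taken without Vtn and Mgp.

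**Figure D2:**
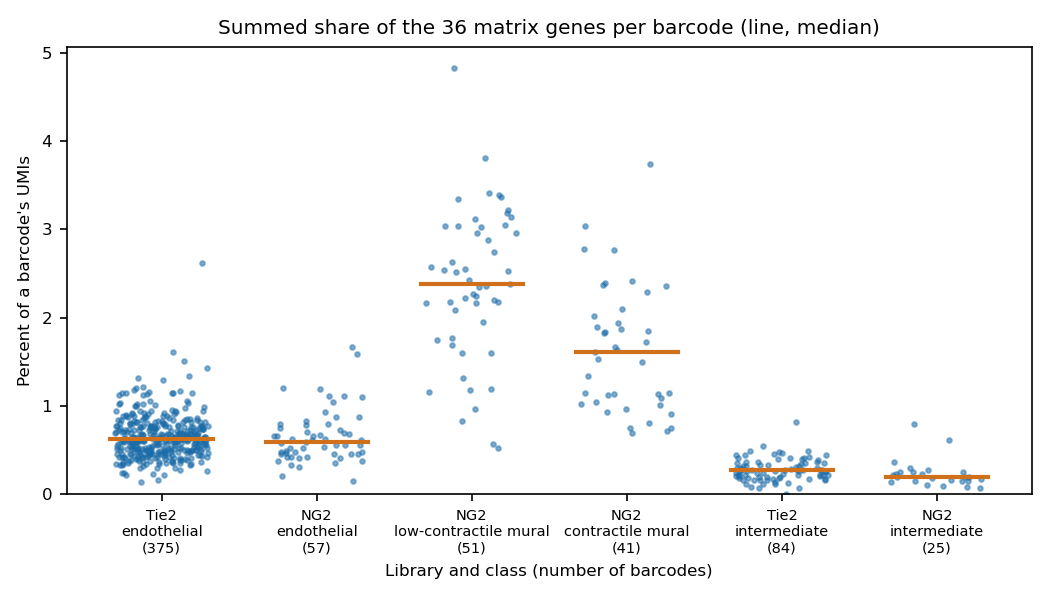
Percent of each barcode's UMIs that came from the 36 matrix genes, by library and class, with 1 point per barcode and a line at the median. Low-contractile mural barcodes have a median of 2.38% and contractile ones 1.61%, above the medians of all 4 endothelial and intermediate groups.

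The comparison of mural with endothelial barcodes within the NG2-DsRed library asked which vascular cell carries which matrix transcript. Of the 36 members, 26 reached 20 UMIs over both classes, and 18 of these were at least 2-fold higher in low-contractile mural barcodes, where 18.6% of all 5386 genes compared were. Another 2, Fn1 and Fbln2, were at least 2-fold lower, against 19.1% of all genes, and 6 lay between. The median log2 ratio was 2.50 over these members and 0.08 over all genes compared. Against mural-low endothelial barcodes 17 of 22 were higher (20.5% of all genes) and 1, Hspg2, was lower (22.5%).

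Vitronectin (Vtn), a cell-adhesive glycoprotein of plasma and matrix, gave the highest level of any member. It stood at 7462 CPM (95% interval 7005 to 7941) in low-contractile mural barcodes and at 3477 CPM (95% interval 3213 to 3756) in contractile ones, and 50 of 51 and 35 of 41 barcodes had a UMI. Endothelial barcodes of the NG2-DsRed library held 726 CPM in all, but 99.4 CPM in the 22 mural-low ones, so the log2 ratio of low-contractile mural to endothelial was 3.36 (95% interval 3.19 to 3.54) and 6.23 (95% interval 5.48 to 7.11) in turn. In the Tie2-GFP library the level was 111 CPM in all endothelial and 3.85 CPM in mural-low endothelial barcodes: the 26 barcodes with at least 2 mural genes held 352 of the 363 endothelial Vtn UMIs but 13.0% of all endothelial UMIs. No Vtn UMI was found in the 84 Tie2-GFP intermediate barcodes, which allows at most 2.50 CPM.

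Several other members had the same distribution. Asporin (Aspn), a small leucine-rich proteoglycan that binds collagen, reached 1264 CPM (95% interval 1079.8 to 1469.9) in low-contractile and 812 CPM in contractile mural barcodes. NG2-DsRed endothelial barcodes had 187 CPM in all and 14.2 CPM in the mural-low ones. In the Tie2-GFP library (25.6 CPM) all 84 endothelial Aspn UMIs lay in the 26 barcodes with mural genes, and the 349 mural-low barcodes held none. Biglycan (Bgn), a related proteoglycan, stood at 519 and 368 CPM in the mural classes and at 35.5 CPM and 20.0 CPM in mural-low endothelial barcodes of the NG2-DsRed and Tie2-GFP libraries. Thus in the Tie2-GFP library Aspn had no UMI in mural-low endothelial barcodes, while Bgn kept a low level, with UMIs in 33 of the 349. In NG2-DsRed endothelial barcodes 95 of 97 Aspn and 41 of 46 Bgn UMIs lay in those with at least 2 mural genes. That left too few UMIs in mural-low ones to tell these genes apart.

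Matrix Gla protein (Mgp), an inhibitor of vascular calcification that also binds bone morphogenetic proteins, was likewise highest in mural barcodes, with 4400.3 CPM (95% interval 4051 to 4772) in low-contractile and 3428 CPM (95% interval 3166 to 3706) in contractile ones. One contractile barcode held 24.6% of that class's Mgp UMIs. Endothelial barcodes had 1071 CPM in the NG2-DsRed and 384 CPM in the Tie2-GFP library. In the mural-low ones the levels were 263 and 277 CPM, a log2 ratio of Tie2-GFP to NG2-DsRed of 0.08 (95% interval -0.40 to 0.59). In the Tie2-GFP library these UMIs were unevenly spread: 116 of 349 mural-low barcodes had a UMI, and 9 of them held at least as many Mgp UMIs as all the rest together. With each barcode thinned to 2565 UMIs, the variance of Mgp counts was 7.91 times their mean, against 1.03 for Lama4 and 1.89 for Fn1 in the same barcodes.

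Interstitial collagen genes, whose products form fibrils outside the basement membrane, were low but mural. Col1a2 stood at 331 CPM in low-contractile and 162 CPM in contractile mural barcodes, with no UMI in the mural-low endothelial barcodes of either library. Col3a1 had 233 and 184 CPM in the mural classes, and 1 UMI in all mural-low endothelial barcodes together. Col1a1, which supplies the other chain of type I collagen, had no UMI in any of the 92 NG2-DsRed mural barcodes, where Col1a2 had 74. Col5a1 and Dcn, the latter a fibroblast proteoglycan, had at most 3 UMIs in any mural class.

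Collagen IV chains split into a shared pair and a mural set. The products of Col4a1 and Col4a2 form the trimer found in nearly all basement membranes, and in Tie2-GFP endothelial barcodes Col4a1 stood at 436 CPM (95% interval 414 to 459.7) and Col4a2 at 247 CPM. In the NG2-DsRed library Col4a1 stood at 419 CPM in endothelial, 948 CPM in low-contractile and 644 CPM in contractile mural barcodes, and its log2 ratio of low-contractile mural to endothelial was 1.18 (95% interval 0.85 to 1.50). Col4a2 followed at 234, 421 and 374 CPM, with a log2 ratio of 0.85 (95% interval 0.37 to 1.32). The UMIs of Col4a1 to those of Col4a2 stood at 1.77 (95% interval 1.62 to 1.93) in Tie2-GFP endothelial, 1.79 (1.43 to 2.26) in NG2-DsRed endothelial, 2.25 (1.63 to 3.14) in low-contractile and 1.72 (1.27 to 2.36) in contractile mural barcodes, intervals that overlap throughout. Neither gene had a UMI in the 84 Tie2-GFP intermediate barcodes, whose 1200991 UMIs allow at most 2.50 CPM.

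The chains α3 to α6, which build the specialized collagen IV networks of structures such as the kidney filter, were found in mural barcodes. Col4a4 stood at 466 CPM (95% interval 358 to 598) in low-contractile mural barcodes and 119 CPM in contractile ones. Col4a5 had 323 and 179 CPM, Col4a6 165 and 65.0 CPM, and Col4a3 143 and 81.2 CPM in the same order. None of the 4 genes had a UMI in the 22 mural-low NG2-DsRed endothelial barcodes, and the 349 mural-low Tie2-GFP barcodes held 6 such UMIs in all, at most 1.05 CPM for any of the 4. At least 1 UMI of Col4a3 to Col4a6 was present in 45 of 51 low-contractile (88.2%, 76.1 to 95.6) and 29 of 41 contractile mural barcodes (70.7%, 54.5 to 83.9), against 4 of 349 mural-low Tie2-GFP endothelial barcodes (1.15%, 0.313 to 2.91). The median depth was 2480, 3921 and 7233 UMIs in the same order. Among all endothelial barcodes of the NG2-DsRed library 20 of 57 had such a UMI (35.1%, 22.9 to 48.9), all of them among the 35 with mural genes. With barcodes thinned to 2565 UMIs the shares were 95.8% of 24, 44.4% of 36 and 0.309% of 324, and 18.2% of 55 for all NG2-DsRed endothelial barcodes.

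The genes of these 2 head-to-head pairs had unequal UMI counts in low-contractile mural barcodes. There Col4a4 had 3.26 UMIs per UMI of Col4a3 (95% interval 1.93 to 5.78), and Col4a5 had 1.95 per UMI of Col4a6 (1.14 to 3.43). In contractile mural barcodes the ratios were 1.47 (0.727 to 3.04), an interval that includes equal counts, and 2.75 (1.38 to 5.85). Counts were taken near transcript 3′ ends, so such ratios between genes also carry how well each end was captured. Intermediate barcodes of the Tie2-GFP library held 15 UMIs of Col4a4 and 8 of Col4a5 but none of the other 4 chains, and 16 of 84 had such a UMI, a share that was 0 of 81 after thinning.

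Among endothelial barcodes of the other library, the mural α chains lay mainly in those that also carried mural genes. The median depth of such barcodes was 17451.5 UMIs, against 7233 in mural-low ones. In the 26 Tie2-GFP endothelial barcodes with at least 2 mural genes, Col4a4 stood at 70.3 CPM, Col4a5 at 42.2 CPM and Lama2 at 65.6 CPM. These 26 barcodes held 30 of the 33 endothelial Col4a4 UMIs, 18 of 20 for Col4a5, and all 28 for Lama2. By contrast they held 14.9% of Col4a1, 14.1% of Lama4 and 5.07% of Fn1 UMIs, beside their 13.0% of all UMIs.

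**Figure D3:**
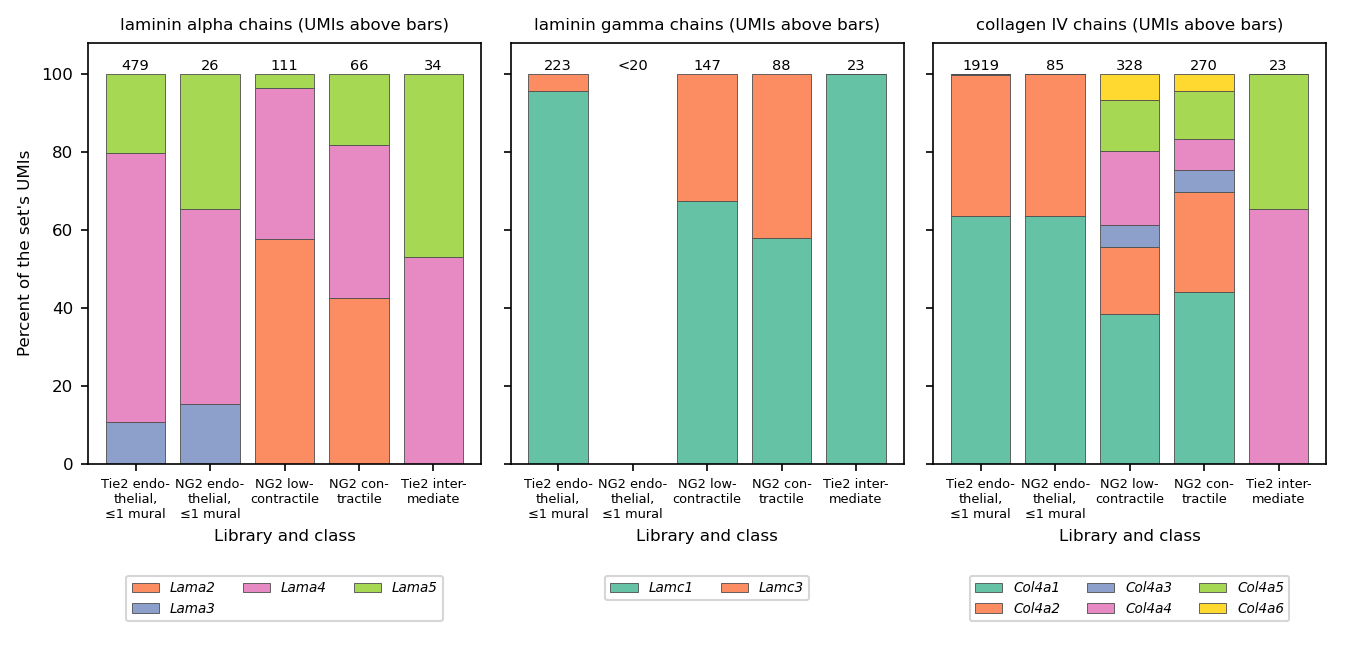
Share of each chain among the UMIs of laminin α, laminin γ and collagen IV chains in 5 classes, with the summed UMIs above the bars and no bar where a set had under 20. Lama2, Lamc3 and Col4a3 to Col4a6 fill a large part of the mural bars and little or nothing of the mural-low endothelial bars.

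Endothelial and mural barcodes shared the laminin α chains Lama4 and Lama5 and differed in Lama2. Lama2, the α chain of muscle and mural laminins, stood at 481 CPM (95% interval 371 to 615) in low-contractile and 152 CPM in contractile mural barcodes, and had no UMI in the mural-low endothelial barcodes of either library. Lama4, a main α chain of endothelial basement membranes, was present in both: 117 CPM in Tie2-GFP endothelial, 84.9 in NG2-DsRed endothelial, 323 in low-contractile and 141 in contractile mural barcodes. Lama3, best known from epithelial laminins, had 55 UMIs in 39 Tie2-GFP endothelial barcodes (16.8 CPM) and 10 UMIs in NG2-DsRed endothelial barcodes (19.3 CPM), with none in mural or intermediate barcodes. The mural counts of 0 allow up to 22.6 CPM in the low-contractile and 16.2 CPM in the contractile class, limits close to these endothelial levels. Lama5 stood at 34.1 CPM in Tie2-GFP endothelial, 42.5 CPM in NG2-DsRed endothelial, 30.1 CPM in low-contractile and 65.0 CPM in contractile mural barcodes, and Lama1 had no UMI in any class.

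As shares of α chain UMIs, Lama4 made up 68.9% (95% interval 64.5 to 73.0), Lama5 20.5% and Lama3 10.6% in mural-low Tie2-GFP endothelial barcodes. Low-contractile mural barcodes had 57.7% Lama2 (47.9 to 67.0), 38.7% Lama4 and 3.60% Lama5, and contractile ones 42.4% Lama2 (30.3 to 55.2), 39.4% Lama4 and 18.2% Lama5. The 26 α chain UMIs of mural-low NG2-DsRed endothelial barcodes were again Lama4, Lama5 and Lama3 alone. The endothelial set was thus the same 3 chains in both libraries. Lama3 had no UMI in mural barcodes, which allows up to 2.70% of α chain UMIs in the low-contractile and 4.55% in the contractile class.

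The β and γ chains were shared in part. Lamb2 stood at 98.7 CPM in Tie2-GFP endothelial, 147 CPM in NG2-DsRed endothelial, 421 CPM in low-contractile and 379 CPM in contractile mural barcodes, and was the main β chain in each. Lamb1 was 248 CPM in low-contractile but 43.3 CPM in contractile mural barcodes, and 8.53 CPM in Tie2-GFP endothelial ones. Lamc1, the γ chain of most laminins, reached 745 CPM (95% interval 605 to 907) in low-contractile mural barcodes. It stood at 276 CPM in contractile mural, 135 CPM in NG2-DsRed endothelial and 78.6 CPM in Tie2-GFP endothelial barcodes, and its log2 ratio of low-contractile mural to NG2-DsRed endothelial was 2.46 (95% interval 2.01 to 2.92). The 35 NG2-DsRed endothelial barcodes with at least 2 mural genes held 63 of the 70 endothelial Lamc1 UMIs. Their part of all endothelial UMIs was 72.8%. Lamc3 made up 32.7% (25.2 to 40.9) and 42.0% (31.6 to 53.0) of γ chain UMIs in the mural classes, against 4.48% (2.17 to 8.09) in mural-low Tie2-GFP endothelial barcodes. Lamb3 had 2 UMIs in all classes together, both in Tie2-GFP endothelial barcodes.

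Among the linking components, nidogen-1 (Nid1), which bridges laminin and collagen IV, stood at 376 CPM in low-contractile and 206 CPM in contractile mural barcodes, 40.5 CPM in NG2-DsRed endothelial and 67.3 CPM in Tie2-GFP endothelial barcodes. Of the 21 Nid1 UMIs in NG2-DsRed endothelial barcodes, 19 lay in the 35 barcodes with at least 2 mural genes. Nid2 stayed at or below 45.1 CPM in every class. Perlecan (Hspg2), the large heparan sulfate proteoglycan of basement membranes, ran the other way: 107 CPM (95% interval 96.3 to 119) in Tie2-GFP endothelial and 114 CPM in NG2-DsRed endothelial barcodes, 60.2 CPM in low-contractile and 32.5 CPM in contractile mural barcodes. Its log2 ratio of low-contractile mural to endothelial was -0.92 (95% interval -2.20 to 0.15), an interval that includes 0. Agrin (Agrn), another heparan sulfate proteoglycan, was 67.3 CPM in Tie2-GFP endothelial, 84.9 CPM in NG2-DsRed endothelial, 128 CPM in low-contractile and 97.5 CPM in contractile mural barcodes, with a log2 ratio of 0.59 (95% interval -0.31 to 1.43), so no difference from endothelial barcodes was detectable at this depth.

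**Figure D4:**
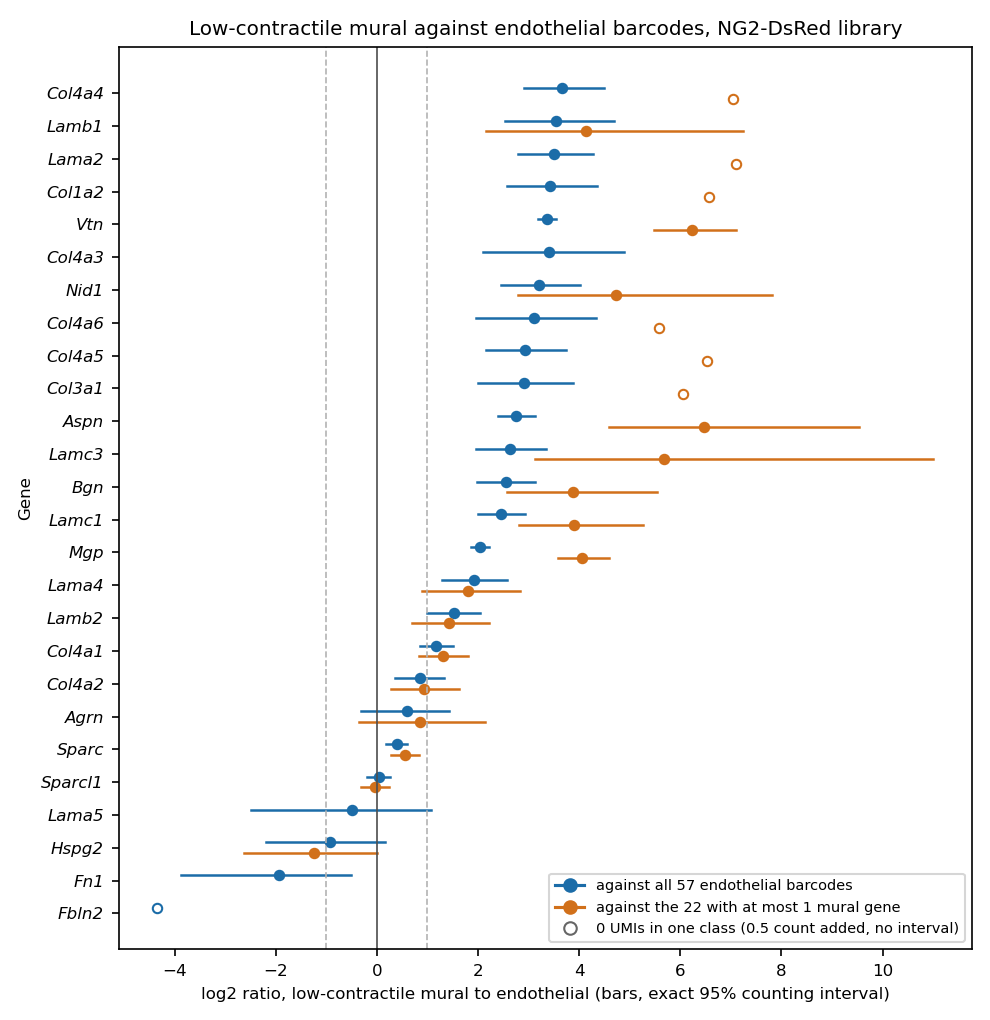
Log2 ratio of low-contractile mural to endothelial barcodes of the NG2-DsRed library for the members with at least 20 UMIs over both classes, against all 57 endothelial barcodes and against the 22 mural-low ones, with exact 95% counting intervals and dashed lines at a 2-fold ratio. Vtn lies at 3.36 and 6.23, Sparcl1 near 0 in both, and Fn1 at -1.94; where no orange point is drawn, the smaller comparison fell short of 20 UMIs.

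Fibronectin (Fn1), an adhesive glycoprotein that binds integrins, was higher in endothelial than in mural barcodes. It stood at 144 CPM (95% interval 131 to 158) in Tie2-GFP endothelial and 116 CPM in NG2-DsRed endothelial barcodes, against 30.1 CPM in low-contractile mural barcodes (4 UMIs) and 5.42 CPM in contractile ones (1 UMI). The log2 ratio of low-contractile mural to endothelial was -1.94 (95% interval -3.87 to -0.51). The 4 mural UMIs came from 3 barcodes. Of the 60 Fn1 UMIs in NG2-DsRed endothelial barcodes, 14 lay in 1 barcode, and 22 of 57 barcodes had any.

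The fibulins, which link matrix proteins and elastic fibres, had no UMI in NG2-DsRed mural barcodes. Fbln2 had no UMI in the 92 mural barcodes of the NG2-DsRed library, while its endothelial barcodes held 39 (75.3 CPM), and Tie2-GFP endothelial barcodes 178 (54.2 CPM). That puts the low-contractile class at least 3.34-fold lower than NG2-DsRed endothelial barcodes, with 3 counts in place of its 0. Fbln5 also had no mural UMI and 43 UMIs in Tie2-GFP endothelial barcodes (13.1 CPM), of which 42 lay in mural-low ones. Its mural counts of 0 allow up to 22.6 CPM in the low-contractile and 16.2 CPM in the contractile class, so a difference was not detectable at this depth. Col18a1, whose C-terminal fragment is endostatin, stood at 37.2 CPM in Tie2-GFP endothelial, 9.65 CPM in NG2-DsRed endothelial, 15.0 CPM in low-contractile and 27.1 CPM in contractile mural barcodes, and the related Col15a1 at 10.4, 9.65, 45.1 and 16.2 CPM in the same order.

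SPARC (osteonectin), a secreted collagen-binding glycoprotein, and its relative SPARC-like 1 (hevin) stood within 2-fold in endothelial and mural barcodes of the NG2-DsRed library. Sparc stood at 2094 CPM (95% interval 2045 to 2144) in Tie2-GFP endothelial, 1516 CPM in NG2-DsRed endothelial, 1993 CPM in low-contractile and 1543 CPM in contractile mural barcodes. Sparcl1 stood at 2408, 1471, 1512 and 2301 CPM in the same order. The log2 ratio of low-contractile mural to endothelial was 0.40 (95% interval 0.19 to 0.60) for Sparc and 0.04 (95% interval -0.19 to 0.27) for Sparcl1.

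The split of mural barcodes by contractile genes showed lower matrix levels in the contractile class. No member was at least 2-fold higher there (10.0% of 3054 genes compared were), and 8 of 22 were at least 2-fold lower (10.8%): Col4a4, Col4a6, Lama2, Lama4, Lamb1, Lamc1, Vtn and Col1a2. The median log2 ratio was -0.83 over these members and -0.01 over all genes compared. Lamb1 had the largest difference, with a log2 ratio of -2.52 (95% interval -3.84 to -1.38), followed by Col4a4 at -1.97 (95% interval -2.74 to -1.25) and Lama2 at -1.67, with an interval wholly below 0. Sparcl1 was the one member whose interval lay above 0, at 0.61 (95% interval 0.36 to 0.86), and Lamb2 (-0.15) and Col4a2 (-0.17) had intervals that included 0. When each barcode was given equal weight, 4 members in place of 8 were at least 2-fold lower, with no share over all genes taken for that setting.

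Levels were lowest in the barcodes with the most contractile UMIs. Barcodes with 0, 1 to 2, 3 to 9 and at least 10 contractile UMIs numbered 38, 13, 15 and 26, and their Col4a1 levels were 918, 1020.5, 1169 and 456 CPM. Vtn ran 6841, 9001, 6175 and 2509 CPM, and Lamc1 728, 785, 574 and 169 CPM. In these 3 genes the interval of the last bin lay below that of each other bin, and for Col4a1 it ran from 350 to 585 CPM against 736 to 1133 CPM in the first bin. Lama2 was 486, 471, 389.8 and 66.2 CPM, a log2 ratio of -2.87 (95% interval -4.09 to -1.83) between the end bins. Sparcl1 went up instead, from 1436 to 2700.1 CPM, while Aspn stood at 1140.1 and 795 CPM and Mgp at 4624 and 3428 CPM in these bins.

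Between the end bins 14 of 22 members were at least 2-fold lower in the barcodes with at least 10 contractile UMIs (14.4% of 2199 genes compared) and 0 were higher (14.1%). Depth moved with the split, with medians of 2272 and 5415 UMIs per barcode in the end bins, and so did genes outside the list: the pericyte channel genes Kcnj8 and Abcc9 stood at 1000.4 and 1316 CPM in the low-contractile and at 292 and 314 CPM in the contractile class. Their part in the matrix difference was not tested.

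**Figure D5:**
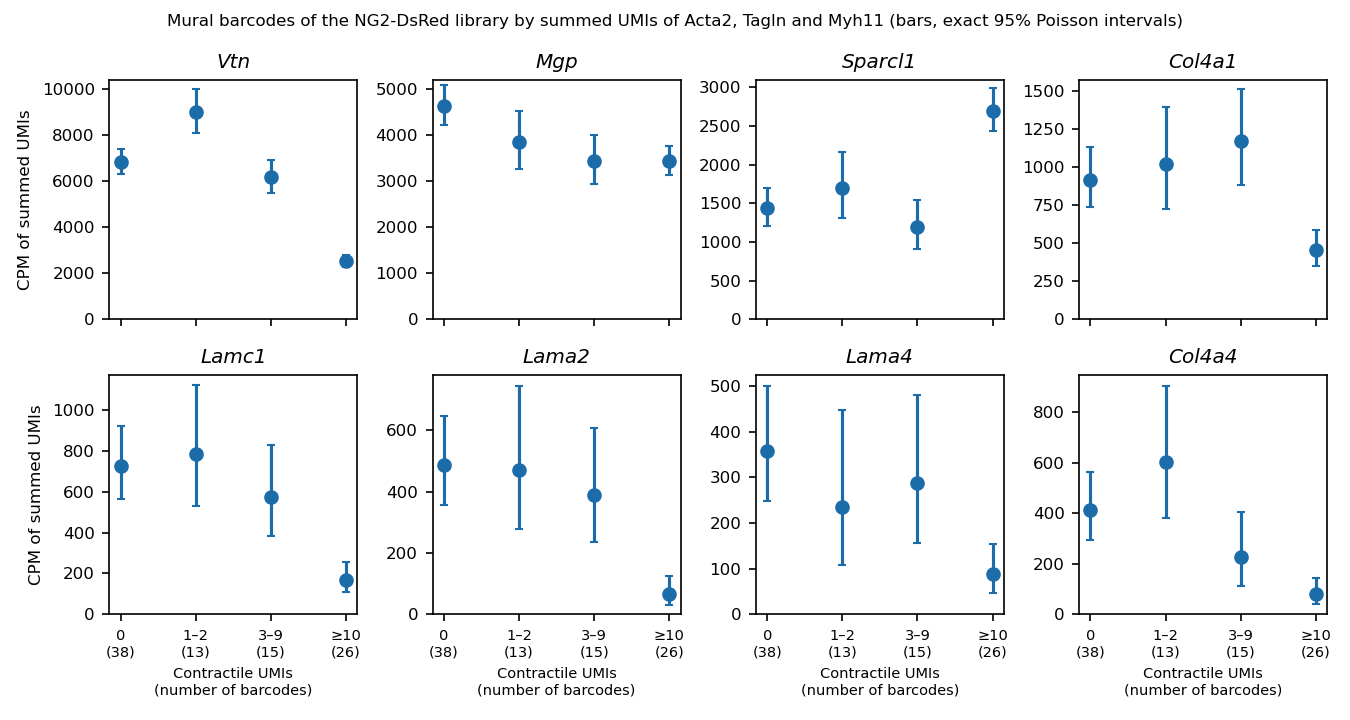
CPM of 8 matrix genes in mural barcodes of the NG2-DsRed library grouped by summed UMIs of Acta2, Tagln and Myh11 (number of barcodes in brackets), with exact 95% Poisson intervals and a linear axis from 0. Levels of Vtn, Lamc1, Lama2 and Col4a4 are lowest in the bin with at least 10 contractile UMIs, where Sparcl1 is highest.

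Most of the members that could be compared were lower in intermediate barcodes than in endothelial or mural ones. Of the 84 in the Tie2-GFP library, 78 had over 5% mitochondrial UMIs, against 7 of 349 mural-low endothelial barcodes. In the NG2-DsRed library 16 of 25 intermediate barcodes did, and 12 of the 18 with at most 1 endothelial and 1 mural gene. There 2 of 51 low-contractile mural and 1 of 22 mural-low endothelial barcodes did. The part of this in what follows was not tested. In the Tie2-GFP library 19 of 26 members that reached 20 UMIs were at least 2-fold higher in endothelial than in intermediate barcodes (28.0% of 10200 genes compared) and 1, Fbln2, was lower (19.5%). Col4a1, with 1433 endothelial UMIs and none in intermediate barcodes, was at least 175-fold higher, and Sparc had a log2 ratio of 3.91 (95% interval 3.69 to 4.14). Of the 19, Aspn and Lama2 had all their endothelial UMIs in the 26 barcodes with mural genes, Vtn had 352 of 363 and Lamc3 27 of 37. In mural-low endothelial barcodes Vtn stood at 3.85 CPM, against a limit of 2.50 CPM for its count of 0 in intermediate ones. In the NG2-DsRed library 20 of 21 members were at least 2-fold higher in low-contractile mural than in intermediate barcodes (24.0% of 3703 genes) and 0 were lower (23.5%). Between mural-low endothelial and stricter intermediate barcodes of that library, the latter with at most 1 endothelial and 1 mural gene, 7 of 8 were higher (25.7% of 2851 genes) and 0 lower (23.4%).

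In the Tie2-GFP library several members of the basement membrane sheet were at least 2-fold lower in intermediate than in endothelial barcodes. Both main collagen IV chains were among them, while Lamb2 and Nid1 stood within 2-fold. Hspg2 was also lower in intermediate barcodes there and lay at the 2-fold limit. It fell just short of that limit only with the counts that the rule adds. In the Tie2-GFP and NG2-DsRed libraries in turn, Lama4 stood at 15.0 and 30.4 CPM, Lama5 at 13.3 and 11.4 CPM, and Lamc1 at 19.2 and 34.2 CPM. Col4a1 had 19.0 CPM and Col4a2 7.59 CPM in the NG2-DsRed intermediate barcodes, where the stricter ones held 0 and 0 UMIs. Agrn stood at 12.5 and 30.4 CPM and Hspg2 at 53.3 and 11.4 CPM. Among the secreted glycoproteins, Sparc stood at 139 and 285 CPM, Mgp at 169.9 and 114 CPM, and Fn1 at 9.16 and 3.80 CPM. Col18a1 had 1.67 and 0 CPM, and Aspn had 0 and 6 UMIs. The NG2-DsRed intermediate class held 263475 UMIs, so that 11.4 CPM there is 3 UMIs and 30.4 CPM is 8. Of its 25 barcodes, 6 also carried at least 2 mural genes.

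A few members were present in intermediate barcodes of the Tie2-GFP library at levels near those of its endothelial barcodes. Sparcl1 stood at 2099.9 CPM in Tie2-GFP intermediate and 1449.8 CPM in NG2-DsRed intermediate barcodes, with UMIs in 83 of 84 and 25 of 25. Lamb2 had 87.4 CPM in the Tie2-GFP library, a log2 ratio of endothelial to intermediate of 0.17 (95% interval -0.15 to 0.51), but in the NG2-DsRed library it had 56.9 CPM in intermediate against 147 CPM in endothelial barcodes, and was at least 2-fold higher in mural-low endothelial than in stricter intermediate ones. Nid1 had 46.6 CPM in the Tie2-GFP library, a log2 ratio of 0.53 (95% interval 0.10 to 0.98), and 60.7 CPM in NG2-DsRed intermediate against 40.5 CPM in endothelial barcodes. Fbln2 was higher in intermediate barcodes, with 143 CPM (95% interval 123 to 166) in 58 of 84 barcodes against 54.2 CPM in endothelial ones, and stood at 30.4 CPM in NG2-DsRed intermediate barcodes. Between intermediate barcodes of the libraries 2 of 11 members, Hspg2 and Fbln2, were at least 2-fold higher in the Tie2-GFP library (9.21% of 7135 genes compared) and 4 were lower (14.1%), namely Lama4, Agrn, Sparc and Vtn. One barcode held 27 of the 75 Sparc UMIs of the NG2-DsRed intermediate class, and one held 52 of the 167 in the Tie2-GFP class. In the NG2-DsRed intermediate barcodes Vtn had 144 CPM, 94.7% of it in 1 barcode, and 5.69 CPM in the 18 barcodes with at most 1 endothelial and 1 mural gene.

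Endothelial barcodes of the 2 libraries were set side by side to see which members depended on the library. Before mural genes were considered, 12 of 29 members were at least 2-fold lower in the Tie2-GFP library (14.3% of 9638 genes compared) and 1, Col18a1, was higher (11.0%). The 12 were Vtn, Mgp, Aspn, Bgn, Col1a2, Col3a1, Col4a4, Col4a5, Col4a6, Lama2, Lamb1 and Lamc3. This comparison shares its NG2-DsRed barcodes with that of mural against endothelial barcodes above. In mural-low barcodes 1 of 20, Vtn, was lower (17.1% of 8902 genes) and 3 were higher (15.7%): Nid1, and Col15a1 and Fbln5, which had 0 of their UMIs in the 22 NG2-DsRed barcodes and 24 and 42 in the 349 Tie2-GFP ones. With 3 counts in place of these 0 the NG2-DsRed level would exceed the Tie2-GFP one, so no bound on either ratio can be given. Col4a1 was 427 and 384 CPM in mural-low Tie2-GFP and NG2-DsRed barcodes (log2 ratio 0.16, 95% interval -0.24 to 0.58), and Lama4 116 and 92.3 CPM. Mouse line, library and counting software cannot be told apart here.

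The correlation of member counts across mural barcodes differed between pairs. Over the 60 mural barcodes with at least 2565 UMIs, thinned to that number, Spearman's rho was 0.50 for Col4a1 with Lamc1 and 0.44 for Col4a2 with Lamc1, the highest of the pairs among 10 members. Other pairs of chains were lower, at 0.35 for Col4a1 with Lamb2, 0.26 for Col4a1 with Col4a2, 0.16 for Lamb2 with Lamc1 and 0.11 for Col4a2 with Lamb2. Some pairs that are not both chains of the sheet stood above all of these but Col4a1 with Lamb2, such as Col4a1 with Vtn at 0.34. These barcodes share 1 library and mix both mural classes, and genes are compared across barcodes, which are not replicates.

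Genes that process matrix were described from 2 further lists of 16 genes each. Of 10 collagen biosynthesis and crosslinking genes that reached 20 UMIs, 5 were at least 2-fold higher in low-contractile mural than in NG2-DsRed endothelial barcodes (P4ha1, Plod3, Loxl2, Bmp1, Pcolce) and 1 was lower (Colgalt1), against 18.6% higher and 19.1% lower over all genes compared. Loxl2, a lysyl oxidase that crosslinks collagen IV, stood at 369 and 42.5 CPM (log2 ratio 3.12, 95% interval 2.36 to 3.91), and Pcolce, which enhances procollagen processing, at 316 and 56.0 CPM. Loxl2 UMIs were found in 15 of 51 low-contractile barcodes, and the top barcode held 30.6% of them. The collagen chaperone Serpinh1 had 361 and 278 CPM, a log2 ratio of 0.38 (95% interval -0.13 to 0.86). Between the contractile and low-contractile classes none of 6 such genes differed 2-fold (10.0% of all genes were higher and 10.8% lower), with log2 ratios of -0.73 for Loxl2, -0.62 for Pcolce and 0.37 for Serpinh1. Between endothelial and intermediate barcodes of the Tie2-GFP library 6 of 14 were higher and 1, Loxl2, was lower, against 28.0% and 19.5% over all genes. Loxl2 stood at 4.57 CPM in endothelial and 38.3 CPM in intermediate barcodes, a log2 ratio of -3.07 (95% interval -4.01 to -2.20). Pxdn, a peroxidase that crosslinks collagen IV, went the other way at 16.1 and 2.50 CPM, as did Serpinh1 at 292 and 98.3 CPM. In the NG2-DsRed library the direction of Loxl2 was reversed, with 42.5 CPM in endothelial and 7.59 CPM (2 UMIs) in intermediate barcodes. Serpinh1 stood at 278 and 209 CPM there. Of these 57 endothelial barcodes, 35 also carried at least 2 mural genes, and Loxl2 was high in low-contractile mural barcodes (369 CPM). Between mural-low endothelial and stricter intermediate barcodes of that library, Loxl2 was not among the genes counted as 2-fold higher or lower.

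Of 9 proteases, inhibitors and receptors that reached the minimum, 4 were at least 2-fold higher in low-contractile mural barcodes (Dag1, Ddr2, Sdc2, Sdc4) and 0 were lower, against 18.6% and 19.1% over all genes. Syndecan-2 (Sdc2), a cell surface proteoglycan, stood at 542 CPM against 84.9 CPM, and dystroglycan (Dag1), a laminin receptor, at 323 against 116 CPM. The cathepsin gene Ctsb had 218 and 139 CPM, a log2 ratio of 0.65 (95% interval -0.02 to 1.29). None of 9 differed 2-fold between the contractile and low-contractile classes (10.0% of all genes were higher and 10.8% lower). The log2 ratios there were -0.94 for Ctsb, -0.74 for Sdc2 and -0.41 for Dag1. Between endothelial and intermediate barcodes of the Tie2-GFP library 5 of 12 were higher and 5 lower, against 28.0% and 19.5% over all genes. Adamts4, an aggrecan-cleaving protease, had 385 endothelial UMIs, 77 of them in 1 barcode, and 0 in intermediate barcodes. Adamts1 stood at 1609.8 and 19.2 CPM, and Timp3, a matrix-bound inhibitor of metalloproteinases, at 688 and 17.5 CPM. These gaps were smaller in the NG2-DsRed library. There Timp3 stood at 423 CPM in endothelial and 288 CPM in intermediate barcodes, and Adamts1 at 712 and 106 CPM. Low-contractile mural barcodes set against NG2-DsRed intermediate ones had 3 of 8 biosynthesis genes and 5 of 10 proteases, inhibitors and receptors higher, and 0 and 3 lower, against 24.0% and 23.5% over all genes. Loxl2 stood at 369 and 7.59 CPM there, with log2 ratios of -0.87 for Ppib and 0.79 for Serpinh1. Bcam, a receptor for laminin α5, stood at 391 and 11.4 CPM, with log2 ratios of -3.10 for Ctsb and 2.52 for Adamts1. The top low-contractile barcode held 39.5% of the Adamts1 UMIs of its class. Endothelial barcodes of the Tie2-GFP library had 2 of 14 and 2 of 12 higher, and 3 and 3 lower, than those of the NG2-DsRed library, against 11.0% higher and 14.3% lower over all genes. Pcolce stood at 10.1 and 56.0 CPM and Adamts4 at 117 and 7.72 CPM. The log2 ratios were 2.06 for Pxdn, 1.46 for P4ha1, -2.57 for Sdc2 and -1.63 for Ddr2.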

How the data were processed

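SV tissue of adult Tie2-GFP and NG2-DsRed mice was digested with collagenase IV and papain, pooled per line and loaded as 1 single-cell library each. The deposited matrices hold raw UMI counts per gene and barcode, which the authors made from reads aligned to mm10, with bcl2fastq 2.20.0.422 named in the submitters' processing notes. Per the file headers the Tie2-GFP counts came from Cell Ranger 7.0.0 and the NG2-DsRed counts from software version 3.0.0, releases that may treat intronic reads differently, so values across libraries carry this difference. Only the 27040 genes in both matrices were used. The study's limits on genes (200 to 6000 and 200 to 5000), UMIs (200 to 30000 and 200 to 20000) and ribosomal share (40%) were kept for the Tie2-GFP and NG2-DsRed libraries, but its 5% mitochondrial limit was an alternative only, since 78 of 84 Tie2-GFP intermediate barcodes exceed it.

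UMIs were summed per class, divided by the class total and multiplied by 1000000 (CPM). The counts sit near transcript 3′ ends, so levels were compared for a gene between classes, and ratios or shares among chains also carry how well each gene's end was captured. No caller for doublets was run (the study removed doublets with scDblFinder), and barcodes with genes of a second class were handled by the stricter classes; 2 NG2-DsRed barcodes met both the endothelial and the intermediate rule and were kept in both. Intervals are exact at 95% (Poisson for levels, Clopper-Pearson for shares, conditional binomial for ratios) and cover counting error only. A member was counted as higher or lower at 2-fold or more, with 0.5 counts added, among genes with at least 20 UMIs over both classes. A count of 0 was given its limit of 3 counts. Shares of barcodes with a UMI were also taken after thinning to 2565 UMIs. With 1 library per line there was no test. Levels in each class of at least 10 barcodes were given for the 17 members with at least 100 UMIs in one of them, and of the 2 further lists the 3 genes with the largest ratio and at least 50 UMIs; other genes were named after their values were seen. The members and lists were chosen with earlier results of these data known. The alternatives were the mitochondrial limit, no limits, stricter classes, equal weight per barcode, totals without mitochondrial genes, other minimum UMIs, folds and contractile splits, and thinning. The comparison between classes was tested on simulated counts, where a share of unchanged genes passed 2-fold by counting error alone. The versions were scipy 1.17.1, numpy 2.4.6, pandas 2.3.3 and matplotlib 3.10.9 under Python 3.11.15.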

Additional observations from a re-analysis of the deposited data

Results flagged for a closer look

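Fbln2 was lower in endothelial than in intermediate barcodes of the Tie2-GFP library (log2 ratio -1.40) and higher in the stricter classes of the NG2-DsRed library (log2 ratio 1.42). The intervals of these ratios lie on opposite sides of 0, and the difference between the libraries was not tested. The second ratio rests on few UMIs. Of the 39 Fbln2 UMIs in NG2-DsRed endothelial barcodes, 24 lay in those with at least 2 mural genes, which the stricter class leaves out.

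In the 93 Tie2-GFP barcodes that met no class rule, Dcn stood at 456 CPM, above its level in every class of that library. Of its 271 UMIs there, 132 and 136 lay in 2 barcodes. Lamb1 stood at 77.4 CPM in the same barcodes. These barcodes enter no comparison, and they also held marginal cell markers at 2215 CPM in sum.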

How the results depend on the processing

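The 20 members called between low-contractile mural and NG2-DsRed endothelial barcodes kept their direction in 240 of 240 values over 12 alternatives, and the 8 called between contractile and low-contractile mural barcodes in 88 of 88 over 11. The size moved beyond the counting interval in 32 of the 240 and 12 of the 88 values, and in 22 of 138 for the next comparison. Of the 20 called between Tie2-GFP endothelial and intermediate barcodes, Col15a1 turned to a log2 ratio of -0.39 under the mitochondrial limit, which leaves 6 intermediate barcodes, and Lama2 and Aspn gave no ratio in stricter classes because both sides had at most 3 counts.

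The other counts are of members at least 2-fold higher or lower (or past the fold named) out of those with enough UMIs, and the cause of their moves was not tested. Shares over all genes were given above only for the comparisons named there. For the remaining settings no such share was taken, so their counts stand without one. For low-contractile mural against NG2-DsRed endothelial barcodes, 1 in place of 2 was lower in stricter classes and at a minimum of 50 UMIs, 0 were after thinning, and 4 were against mural-low endothelial barcodes of the Tie2-GFP library, an alternative chosen after seeing the data. For contractile against low-contractile mural barcodes, 4 in place of 8 were lower with equal weight per barcode, 13 at 1.5-fold (and 1 higher), 3 at 3-fold, 14 with the split at 10 contractile UMIs, and 14 for 10 or more against 0, which was also chosen after seeing the data. For Tie2-GFP endothelial against intermediate barcodes, 2 in place of 1 were lower under the mitochondrial limit, 0 were at 3-fold, and 11 in place of 19 were higher after thinning, which leaves fewer UMIs. For low-contractile mural against intermediate barcodes 1 was lower at a minimum of 1 UMI. For endothelial barcodes of the Tie2-GFP against the NG2-DsRed library, 3 were higher and 1 lower in stricter classes, 2 were higher without limits, with equal weight, at a minimum of 1 UMI and after thinning, 4 were higher at 1.5-fold, and 7 and 5 in place of 12 were lower at a minimum of 50 UMIs and after thinning.

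The matrix share moved under the mitochondrial limit to 0.260% in Tie2-GFP intermediate, 2.45% in low-contractile mural and 0.294% in NG2-DsRed intermediate barcodes. In stricter classes it was 0.646% in Tie2-GFP endothelial, 0.479% in NG2-DsRed endothelial and 0.187% in NG2-DsRed intermediate barcodes. With equal weight it was 0.654%, 0.657% and 1.63% in Tie2-GFP endothelial, NG2-DsRed endothelial and contractile mural barcodes, and without mitochondrial genes in the total 0.678% and 0.315% in Tie2-GFP endothelial and intermediate barcodes.

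No paired analysis was possible because each line has 1 library, and for the same reason leaving out a replicate was not possible. Depth limits the members with few UMIs most: the low-contractile mural class rests on 132945 UMIs, so a count of 0 there allows up to 22.6 CPM.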

Other observations

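The 4 mural barcodes of the Tie2-GFP library were too few for the comparisons. The 3 low-contractile ones held 7 UMIs of Vtn, 5 of Aspn, 21 of Mgp, 3 of Lama2, 4 of Col4a3, 7 of Col4a4 and 8 of Col4a5 among 8568 UMIs in all. The 1 contractile barcode held 20 UMIs of Mgp, 1 of Aspn and 1 of Lama2 among 3692, and 0 of Vtn and of Col4a3 to Col4a6. The 93 Tie2-GFP and 25 NG2-DsRed barcodes in no class gave 0.295% and 0.836% of their UMIs to the 36 members.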
